A study of Mus musculus with 11 samples.

Results

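The glycine receptor subunit genes Glra1, Glra2, Glra3, Glra4 and Glrb were followed in developing mouse retina. They are 5 of the 47069 genes in the count tables and were taken by name as the complete set of mouse subunit genes. RNA of dissociated retinas from C57BL/6 mice was sequenced at postnatal day 4 (P4) and 8 (P8), from animals labelled wild type (2 libraries at P4, 3 at P8) or Brn3b-Kir2.1 (3 libraries at each age). Brn3b-Kir2.1 mice, called Kir2.1 below, carry a human Kir2.1 potassium channel fused to eYFP behind a CAG promoter and a floxed STOP cassette, which the Cre recombinase of the Brn3b-cre line removes. Brn3b (Pou4f2) is a transcription factor of retinal ganglion cells, so the channel is switched on in only some cells of the tissue sequenced. The genotype field calls the controls wild type and the extraction protocol calls them Brn3b-cre, so they may carry the Cre. The age field gives P8 for the older libraries where the protocol gives P11; the age field was followed. The title of the study concerns correlated retinal activity around birth and the wiring of visual axons.

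Glycine receptors are chloride channels of the same superfamily as GABA-A receptors. A channel is a pentamer of alpha subunits, which carry most of the glycine-binding surface, alone or with the beta subunit Glrb, whose long cytoplasmic loop binds the scaffold protein gephyrin (Gphn) and so anchors the receptor at synapses. In the retina glycine is the transmitter of many amacrine cells, and receptors with different alpha subunits sit on different bipolar, amacrine and ganglion cell types. In many parts of the nervous system alpha2 receptors dominate early and alpha1 receptors later.

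The subunits are separate genes with related coding sequences, which is shown here because reads of one could in principle be counted for another. On the GRCm38 assembly (GENCODE vM21) Glra1 (ENSMUSG00000000263) lies on chromosome 11 from 55514238 to 55608198 on the minus strand. Glra2 (ENSMUSG00000018589) lies on chromosome X from 165129017 to 165327393 on the minus strand, and Glra4 (ENSMUSG00000018595) on the same chromosome from 136757674 to 136780141, also on the minus strand. Glra3 (ENSMUSG00000038257) lies on chromosome 8 from 55940460 to 56130070 on the plus strand. Glrb (ENSMUSG00000028020) lies on chromosome 3 from 80843599 to 80913660 on the minus strand. All 5 are annotated as protein-coding, and the coding sequences hold 457, 452, 480, 456 and 496 codons for Glra1, Glra2, Glra3, Glra4 and Glrb. Of the aligned coding bases, 70.2% to 73.5% were identical between any pair of alpha subunits and 54.5% to 57.0% between an alpha subunit and Glrb. No pair shared an exact run of more than 26 bases. The most alike stretch of 60 aligned coding bases, in which 40 positions are the same in all 5 genes, reads as follows, with capitals where a gene differs from the base most common among the 5; at 2 positions a pair of bases tie, and both are in lower case.
Glra1: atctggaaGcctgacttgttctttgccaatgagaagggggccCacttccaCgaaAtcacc
Glra2: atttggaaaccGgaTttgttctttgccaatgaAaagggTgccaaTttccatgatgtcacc
Glra3: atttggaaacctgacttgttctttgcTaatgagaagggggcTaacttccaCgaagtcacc
Glra4: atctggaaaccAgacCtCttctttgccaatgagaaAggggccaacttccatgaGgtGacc
Glrb: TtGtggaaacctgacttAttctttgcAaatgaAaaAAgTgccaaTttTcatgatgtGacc
Glrb differs from the common base at 11 of these positions, Glra4 at 6, Glra2 at 5, Glra1 at 4 and Glra3 at 3. Even where the genes are most alike, the subunits can be told apart base by base. Glra1 shares 141 exonic bases with the antisense gene Gm12236, which had 6 counts over all libraries. Whether counting used strand is not given in the sources used here, so reads in those bases cannot be assigned to a strand.

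Counts assigned to genes ranged from 9362215 to 12478838 per library. The labels name retinal ganglion cells as the source and retina as the tissue. Markers of many retinal cell types were present: at P8 the summed level of 8 rod markers was 568 to 5344 CPM (gene counts scaled to a common library size with TMM factors), that of 8 amacrine cell markers 941 to 3066, that of 7 bipolar cell markers 398 to 1238 and that of 9 ganglion cell markers 67.8 to 191. By these levels the libraries hold RNA of the whole retina, as the tissue field says. Since the transgene is human, the mouse gene Kcnj2 could not check the genotype labels. Wild-type libraries of one age differed: wild-type P4 replicate 2 had 841 CPM of dividing cell markers against 2339 in replicate 1 and 1898 to 2439 in the Kir2.1 libraries of that age. Wild-type P8 replicate 1 had 568 CPM of rod markers, against 2323 and 5344 in the other 2 wild-type libraries and 4782 to 5175 in Kir2.1. Kir2.1 P8 replicate 2 stood apart in another way: it had the fewest gene counts, 31325 genes with a count against 22609 to 24591 in the other libraries, 14.4 CPM of pigment epithelium markers against at most 3.39, and 16.7 CPM of erythrocyte markers against at most 5.63. Xist and 4 summed Y-linked genes were both present at 38.3 CPM or more in 9 of the 11 libraries, so these hold RNA of both sexes. At P4 the Y-linked sum was 187 and 216 CPM in wild type and 89.0, 0.691 and 107 in Kir2.1, and at P8 it ranged from 0.170 to 172 in wild type and from 38.3 to 251.2 in Kir2.1. The sexes were thus mixed unevenly between groups, and the part of this in the values of Glra2 and Glra4, which lie on chromosome X, was not tested. RNA of both sexes in a library means that more than 1 animal contributed to it, but no source says how many animals a library holds or whether libraries share animals, so the p-values measure only the spread between these libraries.

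Of the 5 subunits, 4 were measured well enough to be tested. Per kilobase of exon, the order at P4 was Glra2, Glrb, Glra1 and Glra3 in both genotypes. In wild type at P4 the levels in RPKM (CPM per kilobase of exon) were 10.2 ± 1.28 for Glra2, 4.51 ± 0.612 for Glrb, 1.21 ± 1.21 for Glra1 and 0.442 ± 0.388 for Glra3 (SD, n = 2). In Kir2.1 at P4 they were 9.12 ± 0.978, 3.40 ± 0.783, 0.599 ± 0.484 and 0.329 ± 0.0224 RPKM in the same order (SD, n = 3). At P4 the libraries of Glra2, Glrb and Glra1 did not overlap one another in either genotype, whereas those of Glra1 and Glra3 did. At P8 the 4 means kept this order but were closer together. In wild type at P8 the RPKM levels were 10.7 ± 5.37, 6.34 ± 1.38, 4.35 ± 2.13 and 1.54 ± 0.747 for Glra2, Glrb, Glra1 and Glra3, and each neighbouring pair overlapped (SD, n = 3). In Kir2.1 at P8 they were 5.98 ± 0.974, 5.37 ± 0.317, 3.62 ± 0.709 and 0.812 ± 0.115 RPKM, and only Glra2 and Glrb overlapped (SD, n = 3). With the length of the longest transcript in place of all exons, Glrb stood above Glra2 in Kir2.1 at P8, at 8.25 against 5.98 RPKM.

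Glra4 was at the limit of detection. It had 9 counts in all among 126722554 gene counts, or 0.0710 CPM with an exact 95% Poisson interval of 0.0325 to 0.135 that covers counting error only. In 6 libraries it had none, and the largest count in a library was 3. A library with no count still allows a level of up to 3 counts, which corresponded to between 0.230 and 0.313 CPM over the libraries. The gene did not pass the filter on low counts and entered no test.

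**Figure D1:**
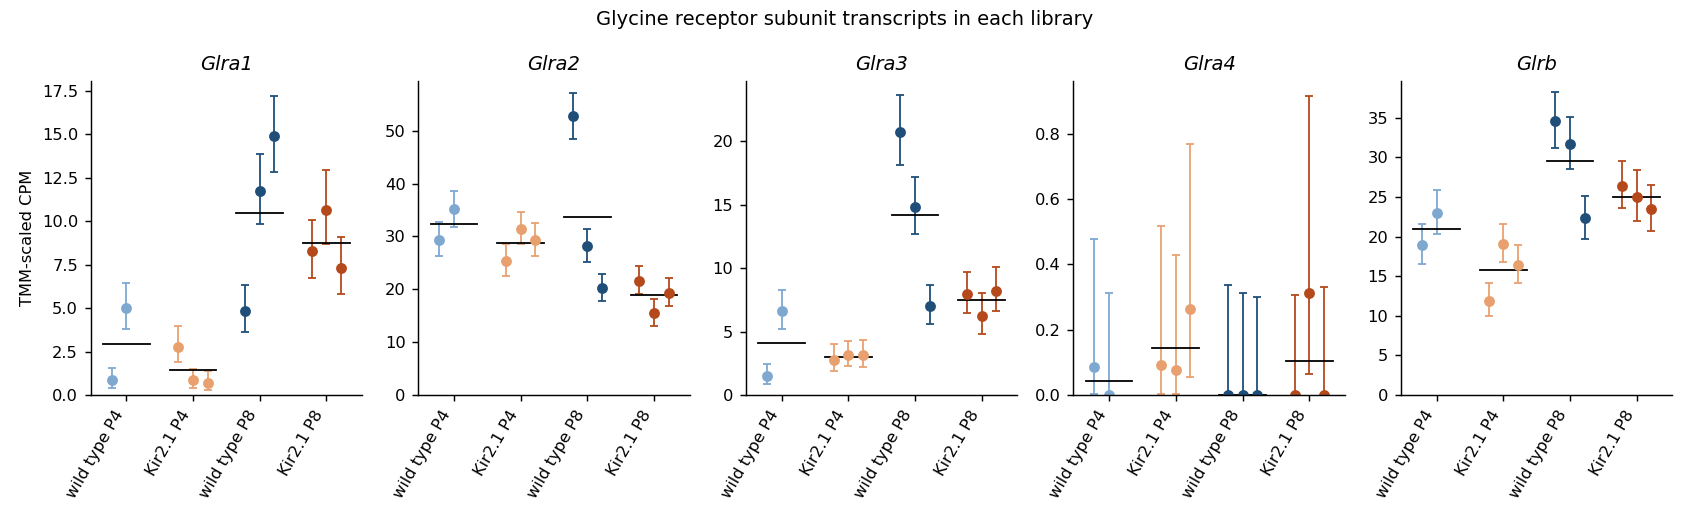
TMM-scaled CPM of each subunit in each library (points, in replicate order, with exact 95% Poisson intervals) and the mean of each group (black line). Glra1 and Glra3 were higher at P8 than at P4 in most libraries, wild-type P8 replicate 1 had the highest Glra2 value at 52.7 CPM, and Glra4 never exceeded 0.313 CPM.

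Of the 4 tested subunits, 3 rose between P4 and P8, and Glra2 did not pass the test. Averaged over genotypes, Glra1 rose 4.67-fold, Glra3 2.92-fold and Glrb 1.49-fold, and no tested subunit fell past the threshold. In this comparison 22.8% of the 18188 tested genes passed an edgeR quasi-likelihood test at a Benjamini-Hochberg adjusted p of 0.05, made up of 10.7% that were higher and 12.1% that were lower at P8. The median log2 fold change was 1.06 over the 4 subunits and 0.02 over all tested genes.

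Glra1 encodes alpha1, the main adult alpha subunit of spinal cord and brainstem. Wild-type libraries had 0.855 and 4.99 CPM of Glra1 at P4 and 4.86, 11.7 and 14.9 CPM at P8. Kir2.1 libraries had 2.79, 0.844 and 0.700 CPM of Glra1 at P4 and 8.28, 10.6 and 7.32 CPM at P8, in replicate order. The ages overlapped only through wild-type P4 replicate 2 and wild-type P8 replicate 1, and in Kir2.1 they did not overlap. The log2 fold change from P4 to P8 was 2.22 ± 0.49 (SE; 95% interval 1.16 to 3.29; edgeR adjusted p = 0.00630) averaged over genotypes. Within Kir2.1 it was 2.61 ± 0.66 (edgeR adjusted p = 0.0181), and within wild type 1.84 ± 0.71, which did not pass the test (edgeR adjusted p = 0.176). Without wild-type P4 replicate 2 the wild-type value was 3.604 and passed (edgeR adjusted p = 0.0354), and without wild-type P4 replicate 1 it was 1.07 (edgeR adjusted p = 0.847). The Kir2.1 call was lost without Kir2.1 P4 replicate 2, Kir2.1 P4 replicate 3 or Kir2.1 P8 replicate 2 (2.32, 2.28 and 2.44; edgeR adjusted p = 0.0699, 0.0739 and 0.0557). The averaged value passed in each of the 11 fits that left out 1 library, from 1.84 to 3.10.

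Glra3 encodes alpha3, a subunit found in inner retina and in the dorsal horn of the spinal cord. Wild-type libraries had 1.54 and 6.60 CPM of Glra3 at P4 and 20.7, 14.8 and 6.996 CPM at P8. Kir2.1 libraries had 2.79, 3.15 and 3.15 CPM of Glra3 at P4 and 7.95, 6.26 and 8.21 CPM at P8, in replicate order. The ages did not overlap within either genotype, although wild-type P8 replicate 3 stood only just above wild-type P4 replicate 2. The log2 fold change was 1.55 ± 0.36 (SE; 95% interval 0.76 to 2.34; edgeR adjusted p = 0.00909) averaged over genotypes. Neither genotype passed alone, with 1.79 ± 0.54 in wild type (edgeR adjusted p = 0.0907) and 1.30 ± 0.48 in Kir2.1 (edgeR adjusted p = 0.0869). In wild type it passed without wild-type P4 replicate 2 (3.19; edgeR adjusted p = 0.00854) or wild-type P8 replicate 3 (2.12; edgeR adjusted p = 0.0311), and fell to 1.10 without wild-type P4 replicate 1. The averaged value passed in each of the 11 fits that left out 1 library, from 1.198 to 2.25.

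Glrb, the beta subunit, moved least of the 3. Wild-type libraries had 19.0 and 23.0 CPM of Glrb at P4 and 34.5, 31.7 and 22.3 CPM at P8. Kir2.1 libraries had 11.9, 19.1 and 16.4 CPM of Glrb at P4 and 26.4, 25.05 and 23.5 CPM at P8, in replicate order. All 3 Kir2.1 libraries at P8 stood above all 3 at P4, while wild-type P8 replicate 3 lay within the P4 range of wild type. The log2 fold change was 0.57 ± 0.16 (SE; 95% interval 0.23 to 0.91; edgeR adjusted p = 0.0201) averaged over genotypes, and this call was lost without wild-type P4 replicate 1 (0.51; edgeR adjusted p = 0.112). Within Kir2.1 it was 0.66 ± 0.21 (edgeR adjusted p = 0.0497), at the edge of the threshold, and it passed in only 1 of the 6 fits that left out 1 Kir2.1 library, the fit without Kir2.1 P4 replicate 2 (0.81; edgeR adjusted p = 0.0416). Without Kir2.1 P8 replicate 2 it was 0.65 and did not pass (edgeR adjusted p = 0.111). Within wild type it was 0.49 ± 0.23 (edgeR adjusted p = 0.273).

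Glra2 encodes alpha2, the alpha subunit that predominates in much of the fetal and newborn nervous system. Wild-type libraries had 29.4 and 35.1 CPM of Glra2 at P4 and 52.7, 28.2 and 20.3 CPM at P8. Kir2.1 libraries had 25.4, 31.5 and 29.3 CPM of Glra2 at P4 and 21.6, 15.6 and 19.4 CPM at P8, in replicate order. Of the wild-type libraries at P8, 1 lay above and 2 lay below both P4 libraries, whereas the 3 Kir2.1 libraries at P8 were all below the 3 at P4. The log2 fold change was -0.27 ± 0.21 averaged over genotypes (95% interval -0.73 to 0.19; edgeR adjusted p = 0.398), 0.06 ± 0.31 in wild type (edgeR adjusted p = 0.944) and -0.61 ± 0.29 in Kir2.1 (edgeR adjusted p = 0.180). Without wild-type P8 replicate 1 the wild-type value turned to -0.43 (edgeR adjusted p = 0.302), and the averaged value was -0.53 and passed the test (edgeR adjusted p = 0.0184).

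Within Kir2.1, 16.7% of tested genes passed from P4 to P8 (7.93% higher, 8.73% lower), and 2 of the 4 subunits, Glra1 and Glrb, were among those higher. Within wild type 4.39% passed, 0.803% as higher and 3.58% as lower, and no subunit was among them. That the subunits passed in one genotype and not in the other does not show a difference between genotypes: the log2 difference between the 2 age effects was 0.77 ± 0.93 for Glra1, -0.67 ± 0.43 for Glra2, -0.49 ± 0.71 for Glra3 and 0.17 ± 0.31 for Glrb (SE), each with an edgeR adjusted p of 0.9998. Without wild-type P4 replicate 2 the Glra1 difference changed sign, to -0.999. Groups of the 2 ages did not overlap, with P8 higher, for Glra3 in wild type and for Glra1, Glra3 and Glrb in Kir2.1. Such a separation upward was seen in 14.2% of all tested genes in wild type and in 19.4% in Kir2.1. For Glra2 in Kir2.1 the separation was downward, as in 18.7% of all tested genes (16.9% in wild type). Over both genotypes together the ages overlapped for all 4 subunits, where 4.55% of tested genes were separated upward and 7.1% downward.

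**Figure D2:**
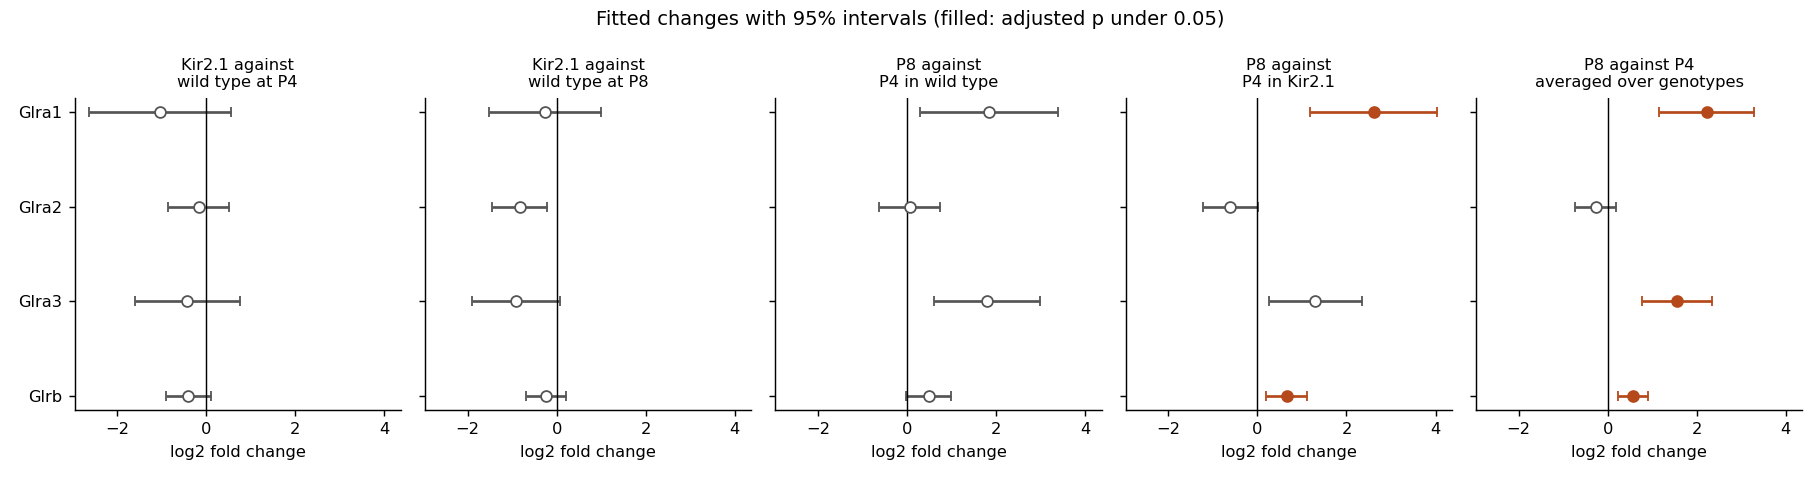
Fitted log2 fold changes of the 4 tested subunits with 95% intervals, in 5 comparisons, with filled points where the adjusted p was under 0.05. Filled points appear only in the comparisons of P8 with P4: Glra1 and Glrb in Kir2.1, and Glra1, Glra3 and Glrb averaged over genotypes.

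The make-up of the alpha transcripts is described here per exon length and without a test. Glra2 made up 87.2% ± 10.1 of the summed alpha RPKM in wild type at P4 (SD, n = 2) and 90.0% ± 4.95 in Kir2.1 at P4 (SD, n = 3). At P8 it made up 61.9% ± 16.1 in wild type and 57.0% ± 7.39 in Kir2.1 (SD, n = 3 each). The Glra1 share went from 9.21% ± 7.97 to 29.1% ± 18.4 in wild type and from 6.08% ± 5.21 to 34.7% ± 7.44 in Kir2.1. The 2 wild-type P4 libraries had Glra1 shares of 3.58% and 14.8%, so the mean of that group rests on wild-type P4 replicate 2. In wild type at P8 the shares ran from 9.59% to 46.2%, and wild-type P8 replicate 1, the lowest, lay within the P4 range, so the ages overlapped in wild type. Without wild-type P8 replicate 1 the P8 mean of the Glra1 share was 38.9%. In Kir2.1 the Glra1 share was 2.88% to 12.1% at P4 and 30.1% to 43.3% at P8, with no overlap. The Glra3 share went from 3.42% ± 2.44 to 8.95% ± 2.82 in wild type and from 3.25% ± 0.127 to 7.76% ± 1.09 in Kir2.1, with 1.69% and 5.14% in wild-type P4 replicates 1 and 2. Glra2 remained the largest alpha share in each of the 11 libraries, and the ratio of Glra2 to Glra1 per length was lowest in wild-type P8 replicate 3, at 1.04. The summed alpha level was 11.9 ± 2.85 RPKM in wild type at P4 (SD, n = 2), 10.1 ± 0.579 in Kir2.1 at P4, 16.6 ± 3.95 in wild type at P8 and 10.5 ± 0.597 in Kir2.1 at P8 (SD, n = 3 each). Of the wild-type libraries at P8, replicate 1 had the highest sum, at 21.0 RPKM, against 15.4 and 13.4 in the other 2. The level of Glrb over that sum was 0.383 ± 0.0403, 0.334 ± 0.0597, 0.385 ± 0.0499 and 0.513 ± 0.0143 in the same groups. These values depend on the length used: with that of the longest transcript the Glrb ratios were 0.581, 0.505, 0.568 and 0.760, and the Glra3 shares 4.74%, 4.53%, 12.1% and 10.6%, in the order wild type P4, Kir2.1 P4, wild type P8 and Kir2.1 P8.

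**Figure D3:**
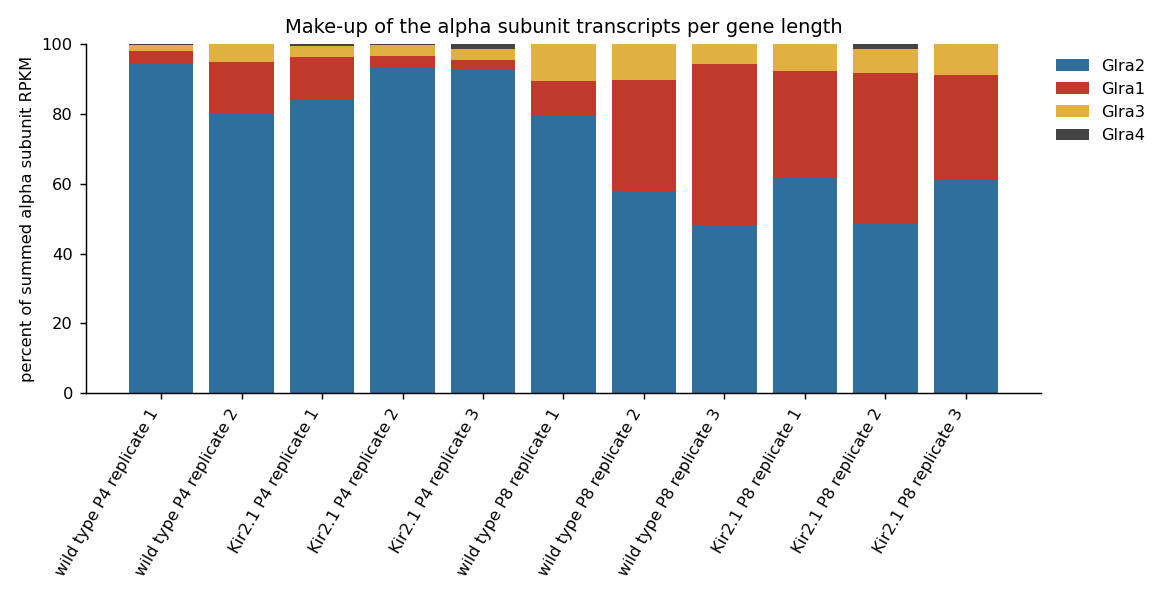
Share of each alpha subunit in the summed alpha RPKM, 1 stacked bar per library, with groups in the order wild type P4, Kir2.1 P4, wild type P8 and Kir2.1 P8. The Glra2 share was 80.0% or more in every P4 library and lay between 48.1% and 79.7% at P8.

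Levels of bipolar and amacrine cell markers are given beside the subunits, whose order they followed in some groups and not in others. Beside Glra1, the summed level of the 7 bipolar cell markers (Grm6, Trpm1, Prkca, Cabp5, Pcp2, Vsx1 and Grik1) was 110 and 314 CPM in wild type at P4, 114 to 118 in Kir2.1 at P4, 398 to 1238 in wild type at P8 and 784 to 999.5 in Kir2.1 at P8. The same wild-type P4 replicate 2 that was high in Glra1 was high in these markers, and wild-type P8 replicate 1 was lowest of its age in both. The Kir2.1 libraries at P8 also stood in the same order for Glra1 as for these markers. In Kir2.1 at P4, by contrast, Glra1 ran from 0.700 to 2.79 CPM at nearly equal marker levels. None of the 7 was at 0 throughout a group, and all 7 rose from P4 to P8 averaged over genotypes. In wild-type P4 replicate 1 and in Kir2.1 at P4, however, Grm6 was at 0 to 0.461 CPM and Trpm1 at 0.186 to 1.71. In wild-type P4 replicate 2 they were at 57.4 and 47.9, and at P8 at 75.4 to 278 and 55.6 to 329. The mix of markers in the sum thus differed between libraries. Per 1000 CPM of bipolar markers, a ratio chosen after the values were seen, Glra1 was at 11.8 ± 5.72 CPM in wild type at P4 (SD, n = 2), 12.6 ± 10.4 in Kir2.1 at P4, 13.3 ± 1.98 in wild type at P8 and 9.93 ± 0.665 in Kir2.1 at P8 (SD, n = 3 each). The P4 means rest on single libraries, with 7.79 and 15.9 in wild type and 24.5, 7.34 and 5.93 in Kir2.1, in replicate order. In bulk RNA more cells of a type and more RNA per cell cannot be told apart.

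Beside Glra2, the summed level of the 8 amacrine cell markers (Tfap2a, Tfap2b, Gad1, Gad2, Chat, Th, Dab1 and Prdm13) was 1528 and 1984 CPM in wild type at P4, 1613 to 1902 in Kir2.1 at P4, 3066, 2052 and 1154 in wild-type P8 replicates 1, 2 and 3, and 941 to 1664 in Kir2.1 at P8. The wild-type P8 libraries stood in the same order for Glra2, Glra3 and Glrb as for these markers. Per 1000 CPM of amacrine markers, Glra2 was at 18.5 ± 1.10 CPM in wild type at P4 (SD, n = 2), 16.4 ± 1.40 in Kir2.1 at P4, 16.2 ± 2.11 in wild type at P8 and 14.2 ± 2.44 in Kir2.1 at P8 (SD, n = 3 each). Glra3 on that scale went from 2.17 ± 1.64 to 6.68 ± 0.580 CPM in wild type and from 1.73 ± 0.0710 to 5.62 ± 0.911 in Kir2.1. Over both genotypes the ages of Glra3 overlapped in CPM, and on that scale it was at 1.007 to 3.325 at P4 and 4.94 to 7.21 at P8. This ratio too was chosen after the values were seen. How many of all tested genes would separate on it was not computed, so no conclusion is drawn from this. Glrb on that scale was at 12.01 ± 0.585 CPM in wild type at P4 (SD, n = 2), 8.98 ± 1.79 in Kir2.1 at P4, 15.3 ± 4.02 in wild type at P8 and 19.4 ± 6.46 in Kir2.1 at P8 (SD, n = 3 each). The Kir2.1 P8 libraries were at 17.5, 26.6 and 14.1, in replicate order, so that replicate 2 was highest. In Kir2.1 neither Glra2 nor Glrb stood in the order of these markers at P4 or at P8. Glra3 did at both ages, though at P4 Kir2.1 replicates 2 and 3 were both at 3.15 CPM. Averaged over genotypes, 2 amacrine markers rose with age (Dab1 and Th) and 2 fell (Gad2 and Tfap2a). What part the cell make-up has in each subunit's change was not tested.

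**Figure D4:**
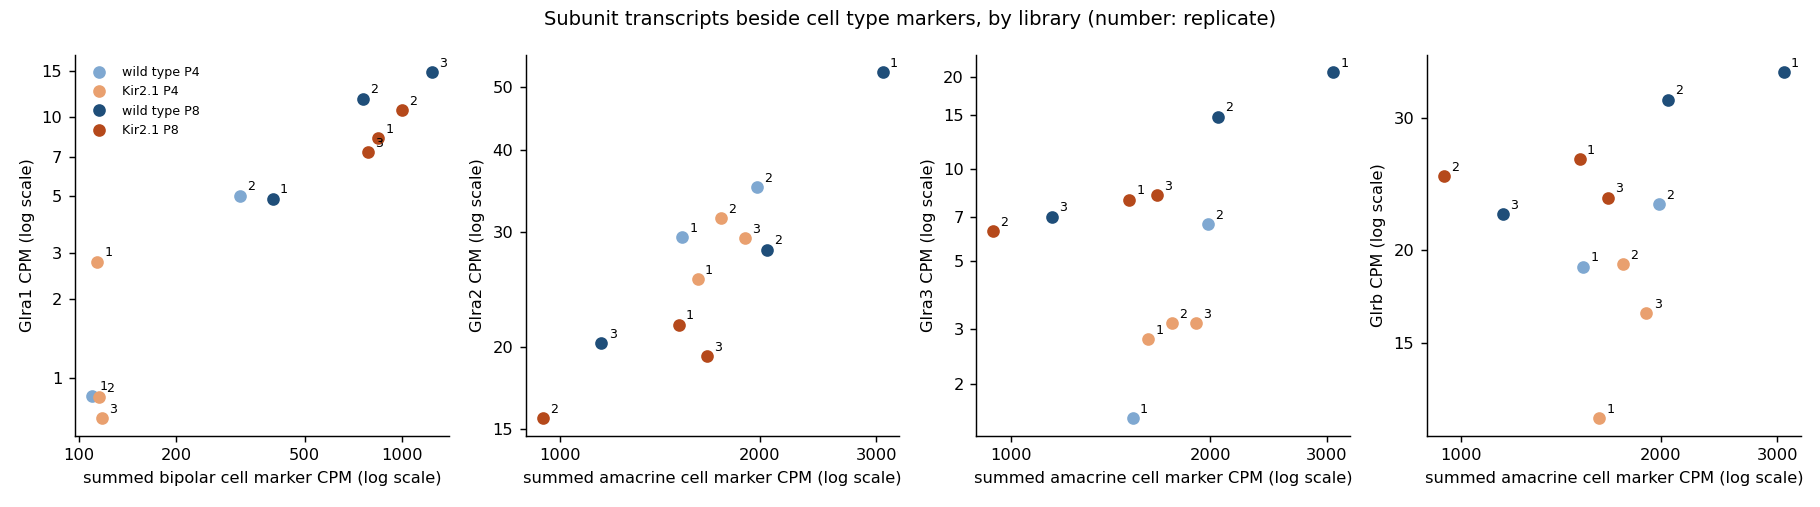
CPM of Glra1 against the summed CPM of 7 bipolar cell markers, and of Glra2, Glra3 and Glrb against that of 8 amacrine cell markers, 1 point per library with its replicate number, all axes logarithmic. Most points of Glra1 and of Glra2 lie along a rising band, with Kir2.1 P4 replicate 1 above it for Glra1, whereas the P8 points of Glra3 lie above the P4 points at similar marker levels.

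Kir2.1 and wild-type retinas were not separated in any subunit at either age. The comparison asks whether the retinal transcriptome differs where the potassium channel is directed to ganglion cells. At P4 the log2 ratio of Kir2.1 to wild type came to -1.03 ± 0.73 for Glra1 (95% interval -2.63 to 0.56), -0.17 ± 0.31 for Glra2 (-0.85 to 0.52), -0.42 ± 0.54 for Glra3 (-1.60 to 0.75) and -0.41 ± 0.23 for Glrb (-0.91 to 0.10). The edgeR adjusted p-values were 0.766, 0.912, 0.870 and 0.722. In this comparison 0% of tested genes passed, with 1314 genes at an unadjusted p under 0.05 and 19 called by DESeq2 on the same 11 libraries. The signs of Glra1 and Glra3 rested on wild-type P4 replicate 2: without it they were 0.73 and 0.97. All 9 ganglion cell markers and all 7 bipolar cell markers were also below 0 in this comparison (median log2 fold changes -1.29 and -1.90), with none past the threshold. The summed bipolar level was 110 CPM in wild-type P4 replicate 1 and 314 in replicate 2, beside 114 to 118 in Kir2.1. The summed ganglion cell markers were at 653 and 1058 CPM in wild type at P4 and at 168 to 526 in Kir2.1 at P4, and their part in the subunits' values was not tested. None of the 4 subunits had non-overlapping groups, against 14.4% of tested genes that were lower and 12.4% that were higher in every Kir2.1 library at P4.

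At P8 all 4 estimates were again below 0. Glra2 was 1.78-fold lower in Kir2.1 (log2 fold change -0.83 ± 0.29, SE; 95% interval -1.46 to -0.21), with an unadjusted p of 0.0129 in edgeR and an adjusted p of 0.699. Glra3 was 1.89-fold lower (-0.92 ± 0.45; 95% interval -1.91 to 0.07; edgeR adjusted p = 0.699). Glrb was at -0.24 ± 0.20 (95% interval -0.69 to 0.21; edgeR adjusted p = 0.776) and Glra1 at -0.27 ± 0.58 (95% interval -1.53 to 0.995; edgeR adjusted p = 0.928). None passed, as for 0% of tested genes, with 1240 genes at an unadjusted p under 0.05 and 1 called by DESeq2 on the same 11 libraries. The groups overlapped for each of the 4, where 5.11% of tested genes were lower and 5.5% higher in every Kir2.1 library at P8. With no filter on low counts Glra2 passed at -0.84 (edgeR adjusted p = 0.00624), one of 447 genes then called. The 95% intervals still admit a fall of Glra2 or Glra3 by more than 2-fold.

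The estimates for Glra2 and Glra3 at P8 depended on single wild-type libraries. Without wild-type P8 replicate 1, the library with the most amacrine marker RNA, Glra2 was at -0.36 and Glra3 at -0.54 (edgeR adjusted p = 0.9998 for each). Without wild-type P8 replicate 3, the library with the least amacrine and the most rod marker RNA of its group, Glra2 was at -1.10 (edgeR adjusted p = 0.0510) and Glra3 at -1.24 (edgeR adjusted p = 0.128). Kir2.1 P8 replicate 2 had the lowest Glra2 and Glra3 of its group, and without it they were at -0.71 and -0.81 (edgeR adjusted p = 0.943 for each). All 8 amacrine markers were below 0 in this comparison (median log2 fold change -0.46) and all 8 rod markers above it (median 0.90), with none of either list past the threshold. Their part in the subunits' differences was not tested.

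The authors' deposited table for P8 gives log2 fold changes of -1.004 for Glra2 (adjusted p = 0.0213), -1.21 for Glra3 (adjusted p = 0.00852), -0.39 for Glrb (adjusted p = 0.402) and 0.19 for Glra1 (adjusted p = 0.904). Of the 13396 genes with an adjusted p in the authors' deposited table for P8, 7.27% were under 0.05 (3.25% higher, 4.02% lower), and 2 of the 4 subunits are among those lower. The authors' deposited table for P8 also calls 2 of the 8 amacrine markers lower, Tfap2a at -0.96 and Gad1 at -0.87 (adjusted p = 0.00171 and 0.00145), and 2 of the 8 rod markers higher, Gnat1 at 2.05 and Nrl at 2.02 (adjusted p = 1.99e-07 and 0.0155). The part of these in its calls of the subunits was not tested. DESeq2 on the P8 libraries without wild-type P8 replicate 3 gave -1.10 for Glra2 (adjusted p = 0.00594) and -1.25 for Glra3 (adjusted p = 0.00637), and with all 6 libraries -0.84 and -0.93 (adjusted p = 0.985 for each). Which libraries entered the authors' deposited table is not given in the sources used here. The authors' deposited table for P4 calls no subunit, with -0.24 for Glra2 (adjusted p = 0.843), -0.85 for Glra3 (adjusted p = 0.657), -0.22 for Glrb (adjusted p = 0.919) and -0.76 for Glra1, which has no adjusted p. Of the 13830 genes with an adjusted p in the authors' deposited table for P4, 2.27% were under 0.05.

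**Figure D5:**
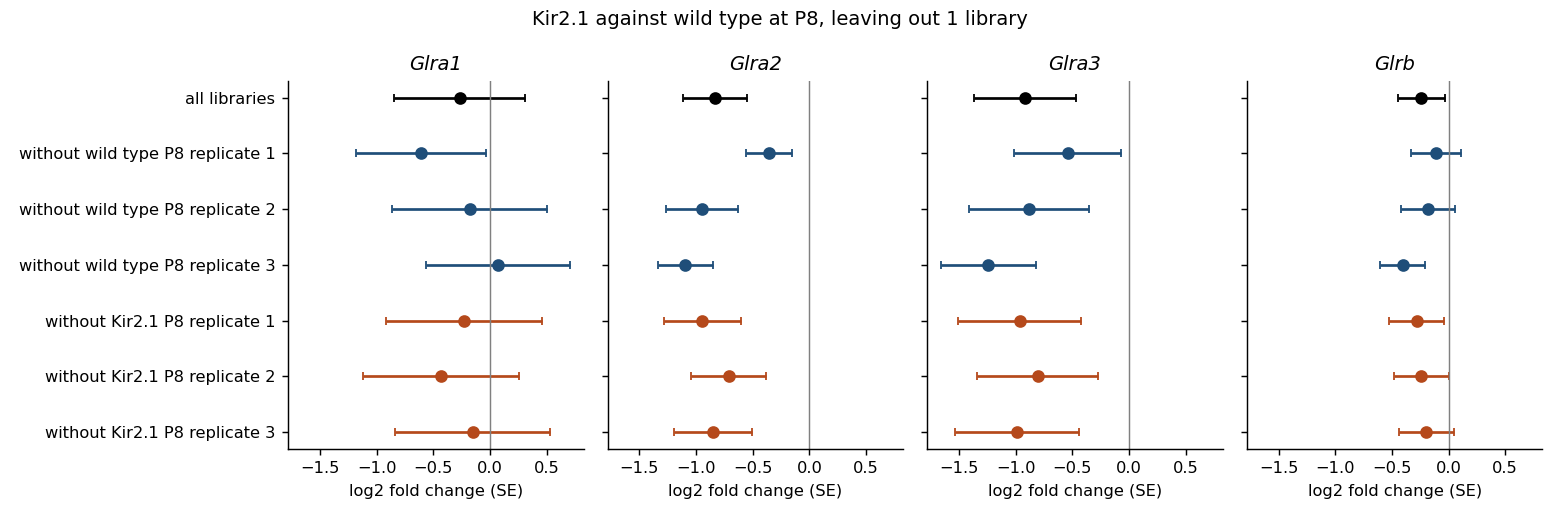
Change at P8 (Kir2.1 relative to wild type, log2 scale, bars of 1 SE) for each tested subunit, with all libraries and with 1 P8 library left out. Glra2 ranged from -1.10 to -0.36 and Glra3 from -1.24 to -0.54, with both ends set by leaving out a wild-type library, and Glra1 changed sign without wild-type P8 replicate 3.

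Several other genes of the glycine synapse were higher at P8. Of 9 genes in this list, 8 passed the filter on low counts and Slc7a10 did not. Averaged over genotypes 4 of the 8 were higher at P8 and none lower, with a median log2 fold change of 0.41, where 10.7% of all tested genes were higher and 12.1% lower. Slc6a9, the glycine transporter GlyT1, rose by 1.85 ± 0.31 on the log2 scale (edgeR adjusted p = 0.00133), from 66.2 ± 56.4 CPM in wild type at P4 (SD, n = 2) to 229.9 ± 93.8 at P8 (SD, n = 3). The wild-type libraries had 26.3 and 106 CPM of Slc6a9 at P4 and 338, 175 and 177 at P8, so 1 library was high at each age and the ages did not overlap. Slc6a5, the glycine transporter GlyT2, rose by 0.96 ± 0.30 (edgeR adjusted p = 0.0386). The potassium-chloride cotransporter gene Slc12a5, which keeps intracellular chloride low in neurons, rose by 0.67 ± 0.13 (edgeR adjusted p = 0.00343), and Gphn by 0.32 ± 0.09 (edgeR adjusted p = 0.0214). Slc32a1, the vesicular transporter that loads glycine and GABA, was at 0.42 ± 0.25 and did not pass (edgeR adjusted p = 0.267). In Kir2.1 alone Gphn, Slc12a5 and Slc6a9 passed, where 7.93% of all tested genes were higher, and in wild type alone none of the 8 did. Against genotype 0 of the 8 passed at either age, with 7 below 0 at P4 (median -0.32) and 7 at P8 (median -0.33).

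Of 6 genes of glycine metabolism, Shmt1 and Shmt2, the serine hydroxymethyltransferases that interconvert serine and glycine, fell with age by 2.34 and 0.70 on the log2 scale averaged over genotypes (edgeR adjusted p = 0.000456 and 0.0290), where 12.1% of all tested genes were lower. The other 4 did not pass. Shmt1 was at 7.97 ± 4.21 CPM in wild type at P4 (SD, n = 2) and 1.44 ± 0.532 at P8 (SD, n = 3), with 10.9 and 4.99 CPM in the 2 P4 libraries. The 6 dividing cell markers fell by a median of 4.38 on the log2 scale in the same comparison, and their part in the fall of Shmt1 was not tested. Taurine is another agonist of these receptors. Of 3 genes of taurine handling, Cdo1 fell by 1.41 on the log2 scale in wild type (edgeR adjusted p = 0.0154), where 3.58% of all tested genes were lower. In Kir2.1 it did not pass, with 3.93 ± 0.258 CPM at P4 and 4.70 ± 1.20 at P8 (SD, n = 3 each). The difference between the age effects passed for 0% of tested genes, and none of the 3 genes passed averaged over genotypes.

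The GABA-A receptor genes encode the related family of chloride channels gated by GABA. Of 19 genes 17 passed the filter, and averaged over genotypes 7 were higher at P8 (among them Gabrr1, Gabrr3, Gabrd, Gabrr2 and Gabrg3) and 2 lower (Gabrb1 and Gabre), beside 10.7% higher and 12.1% lower among all tested genes. Their median log2 fold change was 0.29, beside 1.06 over the 4 glycine receptor genes. Gabrr1, whose rho subunit is typical of bipolar cells, had the highest value at 4.67 ± 0.79 (edgeR adjusted p = 0.00134). At P4 and at P8 none of the 17 passed between genotypes.

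Likeness of profile over the 11 libraries was measured as the root-mean-square difference of centred log2 CPM over 15921 genes with a mean of at least 1 CPM, and serves as a description. Nearest to Glra1 were Siah3 (0.276), Nyx (0.364) and the bipolar marker Grik1 (0.369). Nearest to Glra2 were Dgkq (0.183), Ica1l (0.185) and Arhgef15 (0.198). Nearest to Glra3 were Zfp804a (0.255), Stac2 (0.282) and Rnf182 (0.284), and among the 3 nearest to Glrb were Rcan3 (0.117) and Srr (0.124). Among the subunits the smallest distance was that of Glra2 and Glrb at 0.547 and the largest that of Glra1 and Glra2 at 1.54. The smallest was no special likeness: 49.0% of genes were closer to Glra2 than Glrb was, and 57.9% closer to Glrb than Glra2 was. Glra3 and Glrb were 0.644 apart, with 2.46% of genes closer to Glra3 and 72.0% closer to Glrb. Glra1 and Glra3 were 0.896 apart, with 3.11% closer to Glra1 and 26.0% closer to Glra3. The SD of log2 CPM over the libraries was 1.36 for Glra1, 0.998 for Glra3, 0.47 for Glra2 and 0.42 for Glrb.

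Promoter sequence was at hand in RefSeq (GRCm38.p6) for 4 of the 5 members, as 300 bases from 250 before to 50 after the start. It is shown for Glra3 and Glrb, which rose with age, and for Glra2, which did not. Capitals mark 3 motifs, each searched on either strand. The first is the GC box, GGGCGG. The second is the core of the TATA box, spelled TATAAA. The third is the CCAAT box.
Glra3: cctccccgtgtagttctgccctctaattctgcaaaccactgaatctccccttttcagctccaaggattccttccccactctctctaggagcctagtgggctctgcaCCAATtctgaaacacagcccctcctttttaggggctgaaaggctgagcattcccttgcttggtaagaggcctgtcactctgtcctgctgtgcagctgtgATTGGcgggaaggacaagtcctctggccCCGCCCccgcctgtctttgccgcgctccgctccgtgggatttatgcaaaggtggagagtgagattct
Glrb: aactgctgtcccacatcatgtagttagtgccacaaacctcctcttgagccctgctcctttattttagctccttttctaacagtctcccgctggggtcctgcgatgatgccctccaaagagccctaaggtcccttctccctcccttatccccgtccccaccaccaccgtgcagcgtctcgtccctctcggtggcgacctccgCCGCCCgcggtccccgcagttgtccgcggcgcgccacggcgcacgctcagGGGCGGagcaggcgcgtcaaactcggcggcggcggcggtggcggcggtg
Glra2: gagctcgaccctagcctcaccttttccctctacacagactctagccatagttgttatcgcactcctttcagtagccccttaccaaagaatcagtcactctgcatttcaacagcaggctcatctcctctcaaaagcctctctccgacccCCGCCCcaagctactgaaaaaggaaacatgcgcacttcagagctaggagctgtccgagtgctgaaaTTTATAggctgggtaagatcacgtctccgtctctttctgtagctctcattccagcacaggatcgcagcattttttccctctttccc
These stretches are chr8:55940168-55940467 on the plus strand for Glra3, chr3:80913611-80913910 on the minus strand for Glrb and chrX:165327344-165327643 on the minus strand for Glra2. All 3 hold GGGCGG, with 2 copies in Glrb, a motif present in 35.7% of 32851 promoters of this length. TATAAA occurs in Glra2 and not in the others (13.6% of all promoters), and CCAAT occurs 2 times in Glra3 and in neither of the others (37.4%). The E-box motif CANNTG, found in 72.3% of all promoters, occurs 1 time each in Glra3 and Glrb, and the cAMP response element TGACGTCA (1.79%) in none of the 3. The motifs do not overlap one another here. The Glrb window has a GC content of 65.7% with 30 CG dinucleotides, the Glra3 window 56.0% with 8 and the Glra2 window 50.3% with 9, beside medians of 52.7% and 7 over all promoters. A match of letters in these windows is a description of the sequence.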

How the data were processed

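Per the submitters' processing notes the tools were cutadapt 1.18, STAR 2.5.0c, SAMtools 1.9, bedtools 2.26.0, HTSeq 0.6.1 and DESeq2, with build mm10; roles, annotation and strand setting are not given in the sources used here. The authors deposited whole-number counts per Ensembl gene for each of the 11 libraries; no 2 libraries were identical. Records that name no gene (74.6% to 79.8% of all records) were left out. The authors' deposited tables for P4 and P8 also hold a mean normalized signal, fold changes on the log2 scale with SEs, a test score and p-values.

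Counts were tested with edgeR 4.0.16 (R 4.3.3; TMM scaling, filterByExpr by group, quasi-likelihood F test), fitted to all 11 libraries with 4 group means, and p-values were adjusted by Benjamini-Hochberg over 18188 genes at 0.05. The code was tested on simulated data. SEs come from the F statistic. RPKM divides TMM-scaled CPM by the union of exon lengths in kilobases. The coding sequences were aligned with mafft 7.526. Alternatives used DESeq2 1.42.0, other scalings, filters and samples. Groups came from the labels.

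Members and gene lists were chosen with earlier results of these data known. Always named are the members, Gphn, Slc6a5, Slc6a9 and Slc32a1; other list genes are named where they passed or were the extreme of their list, and the 3 nearest profiles of each member. Some genes that this rule covers are not reported here.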

Additional observations from a re-analysis of the deposited data

How the results depend on the processing

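Averaged over genotypes, the rises of Glra1, Glra3 and Glrb passed under every scaling, filter, test and block tried, and no subunit passed in the comparisons of genotypes under the other scalings. The age effects within 1 genotype sat close to the threshold. In Kir2.1 the call of Glrb was lost with DESeq2 size factors (0.65), without genes above 1% of a library (0.66), and with both wild-type libraries that stand apart left out (0.63). Glra3 passed under the DESeq2 test (1.81 in wild type, 1.30 in Kir2.1) and with only the compared libraries (1.30 in Kir2.1), where Glra2 passed as well (-0.60). With no filter on low counts Glra1 (1.84) and Glra3 (1.79) passed in wild type, Glra2 (-0.60) and Glra3 (1.30) in Kir2.1, and Glra2 against genotype at P8 (-0.84; edgeR adjusted p = 0.00624); the genes called were then 339 at P4, 447 at P8, 136 for the difference between ages and 2058 for age in wild type. DESeq2 called 19, 1 and 1432 genes at P4, at P8 and for age in wild type, and on the libraries of 1 age alone 69 at P4 and 3 at P8. With only the compared libraries 113 genes were called for age in wild type. With both wild-type libraries that stand apart left out, an alternative chosen after seeing the data, the genotype values at P4 were 0.73 for Glra1 and 0.97 for Glra3, the difference between ages was -1.34 for Glra1, and age in wild type gave 3.92 for Glra1, 2.79 for Glra3, -0.30 for Glra2 and 1845 genes called; in Kir2.1 Glra2 (-0.63) and Glra3 (1.28) passed. DESeq2 at P8 without wild-type replicate 3 called 1052 genes, with 0.064 for Glra1, -1.10 for Glra2 and -1.25 for Glra3. For each of these the cause was not tested.
Leaving out 1 library at a time, the genes called ranged from 0 to 6 for genotype at P4, 0 to 219 at P8, 0 to 1 for the difference between ages, 163 to 1339 for age in wild type, 1764 to 2169 in Kir2.1 and 2133 to 4417 averaged over genotypes. For genotype at P4 the values ranged from -1.89 to 0.73 for Glra1 and from -1.12 to 0.97 for Glra3, and at P8 from -0.61 to 0.073 for Glra1. The difference between ages ranged from -0.999 to 1.62 for Glra1, from -1.89 to 0.21 for Glra3 and from -0.012 to 0.32 for Glrb. Age in wild type ranged from 1.07 to 3.604 for Glra1, from -0.43 to 0.32 for Glra2 and from 1.095 to 3.19 for Glra3. Age in Kir2.1 ranged from 2.28 to 3.45 for Glra1 and from 0.46 to 0.81 for Glrb, and the average over genotypes from -0.53 to -0.14 for Glra2 and from 0.47 to 0.66 for Glrb.
Whether the replicate numbers pair the libraries was not settled. Deviations of same-numbered libraries correlated from -0.10 to 0.15 over 5 pairs, of which 2 exceeded 0.1. Deviations from means of 2 or 3 libraries depend on one another, so this check cannot exclude a pairing. With the replicate block Glrb in Kir2.1 was at 0.66 (edgeR adjusted p = 0.0546), and no other subunit's call changed.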
